A study of Mus musculus with 24 samples.

Results

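The translation elongation factors of the cytosol were followed in MIN6 cells, a mouse insulinoma line used as a model of β cells, in which Eef1a2 message was almost absent from one of 3 engineered lines. The members were the 6 genes of the raw count table with the symbols Eef1a1, Eef1a2, Eef1b2, Eef1d, Eef1g and Eef2, out of 17696 genes listed, and all 6 were found in all 24 libraries. The genes were selected on the near loss of Eef1a2 in one line, so the levels of all 6 in that comparison are given as a description without a test, and Eef1a2 was not tested in any comparison that includes that line. The question carried through the comparisons was whether the message of Eef1a1 or of the other factors was higher where that of Eef1a2 was low.

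Elongation factor 1A delivers each aminoacyl-tRNA to the ribosome as a complex with GTP, and mammals carry a pair of genes for it. Eef1a1 is used by most cells, whereas Eef1a2 is known as the form of adult muscle and neurons and is also found in other excitable or endocrine cells. Eef1b2, Eef1d and Eef1g encode the subunits of eEF1B, which reloads eEF1A with GTP, and Eef2 encodes the factor that moves the ribosome along the message.

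Bulk mRNA sequencing covered 6 groups of 4 libraries. Scr cells carried a lentiviral scrambled miRZip-000 hairpin, ZIP cells the miRZip-146a inhibitor of miR-146a-5p, and OE cells a shMIMIC vector for miR-146a-5p, each without treatment or, as Scr+Cy, ZIP+Cy and OE+Cy, with a mix of IL-1β at 5 ng/ml, IFNγ at 100 ng/ml and TNFα at 10 ng/ml given for 24 h. All lines had been selected with puromycin, and the lines came from single picked clones. Scr and ZIP shared a vector backbone that OE did not, so line, clone and, for OE, backbone cannot be told apart. These mRNA libraries do not measure the level of miR-146a-5p. The labels number the libraries 1 to 4 in each group, and each number carries a code of its own that all 6 groups share. They do not say what the code stands for or that the libraries were separate cultures, so p values measure the spread between libraries, which may be technical.

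Libraries held between 26657792 and 37168232 assigned reads, and the 6 members took 0.533% to 0.853% of them. Levels are given as CPM (counts scaled to a fixed library total) after TMM scaling, which corrects for library composition. Of 10 β cell markers, 9 or 10 reached a mean of 1 CPM in every group. The list summed to 18756 to 25050 CPM in Scr, 28374 to 30904.5 in ZIP and 40112 to 43788 in OE. With cytokines it summed to 19595 to 21528 CPM in Scr+Cy, 25617 to 28568 in ZIP+Cy and 25356.5 to 33004 in OE+Cy. In OE, Ins1, Ins2, Iapp, Slc2a2, Slc30a8 and Ucn3 were above every Scr library, and Pdx1, Nkx6-1, Mafa and G6pc2 below every one. The 4 skeletal muscle markers found, out of 10 listed, summed to between 1.18 and 2.57 CPM in any library. Peripheral nerve markers were higher in Scr, ZIP and Scr+Cy replicate 1 than in the other libraries of their groups, with the list of 8 summing to 133.4, 194.9 and 306.4 CPM, above every other library of these groups. The connective tissue list was also higher there, at up to 57.3 CPM in Scr+Cy. The members' fits were repeated without these 3 libraries, and a call that changed is given beside its result. Eef1a1 was then higher by 0.52 in ZIP+Cy than in Scr+Cy, by 0.64 in OE than in Scr and by 0.66 in OE+Cy than in Scr+Cy. The 6 neuron markers, all found, summed to 486.5 to 591.9 CPM in Scr, 628.7 to 668.7 in ZIP and 514.9 to 527.8 in OE, and to between 446.6 and 653.2 CPM in the groups with cytokines. OE stood apart in both other pancreatic lists. The exocrine list, of which 2 of 5 markers were found, summed to 12.4 to 17.4 CPM in OE and 15.9 to 24.2 in OE+Cy, against at most 0.210 CPM in the other groups, and in OE all of it was Krt19, with Cela1 at 0 in every library. The 4 markers of other islet cells summed to 46.0 to 56.0 CPM in OE against 246.4 to 369.3 in Scr and 101.5 to 304.6 in ZIP. With cytokines they summed to 9.09 to 34.7 in OE+Cy against 133.6 to 190.4 in Scr+Cy and 78.4 to 218.0 in ZIP+Cy. Most of each sum was Gcg, whereas Ppy and Sst went the other way. Ppy was at 6.04 to 10.9 CPM in OE and at 0 in every Scr and ZIP library. Sst was at 0.816 to 1.93 CPM in OE, against at most 0.186 in Scr and 0.302 in ZIP. Both were also higher in every OE+Cy library than in any Scr+Cy or ZIP+Cy library. The part of these markers in the differences between lines was not tested.

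The inhibited or overexpressed microRNA is shown to let its seed be compared with the members. In the line below, the capitals mark bases 2 to 8, the seed; the sequence is that of RefSeq for GRCm38.p6, on the minus strand of chromosome 11 from 43374435 to 43374456.
mmu-miR-146a-5p: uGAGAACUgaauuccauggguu
The complement of that seed, AGTTCTC, was searched on the sense strand of the 3′ untranslated regions (GENCODE M21). It occurred in none of the coding transcripts of the 6 members, and in 10.0% of 20706 genes. No match says only that these letters are not in those regions.

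The members Eef1a1 and Eef1a2 are paralogs, so it was checked whether their reads could be told apart. Over 1392 aligned coding columns they were 80.0% identical, and the longest identical run was 23 bases. The most alike 100-base stretch, coding bases 55 to 154 of both genes, is shown because it is where a read would be hardest to place. Its 10 mismatches are in capitals.
Eef1a1: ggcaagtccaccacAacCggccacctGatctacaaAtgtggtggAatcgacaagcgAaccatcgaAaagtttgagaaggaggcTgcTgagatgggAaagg
Eef1a2: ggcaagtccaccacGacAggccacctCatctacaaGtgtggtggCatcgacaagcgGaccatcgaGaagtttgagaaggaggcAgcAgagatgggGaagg
None of the 1280 windows of 100 bases was identical between the paralogs. Copies elsewhere in the transcript set were a larger source of doubt. For Eef1a1, 26.7% of its 100-base windows also occurred in 10 other genes, and for Eef1g 49.4% occurred in 4 others, none of them listed in the count table. The levels of both are therefore uncertain where the counting could split reads. The share was 0% for Eef1a2, 1.25% for Eef1b2, 9.76% for Eef1d and 0.0669% for Eef2. Of the 216 shared windows of Eef1d, 178 occurred in Naprt, which is listed in the count table, so the level of Eef1d is uncertain as well.

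Eef1a2 lies on chromosome 2 of mm10 from 181141758 to 181157015, on the minus strand. The 4 Scr libraries held 315.9, 321.5, 317.4 and 335.6 CPM, and the 4 ZIP libraries 0.146, 0.365, 0.651 and 1.38 CPM, or between 4 and 41 reads against at least 10155 in Scr. Message was thus detected in every ZIP library, at a level far below any Scr library. In OE the 4 libraries held 42.7, 56.6, 58.3 and 62.9 CPM, between those of the other lines and overlapping with neither. With cytokines the order of the lines was the same, with 294.0, 280.2, 292.3 and 312.5 CPM in Scr+Cy, 0.0698, 0.173, 0.537 and 0.903 CPM in ZIP+Cy, and 42.6, 55.6, 49.1 and 61.2 CPM in OE+Cy.

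**Figure D1:**
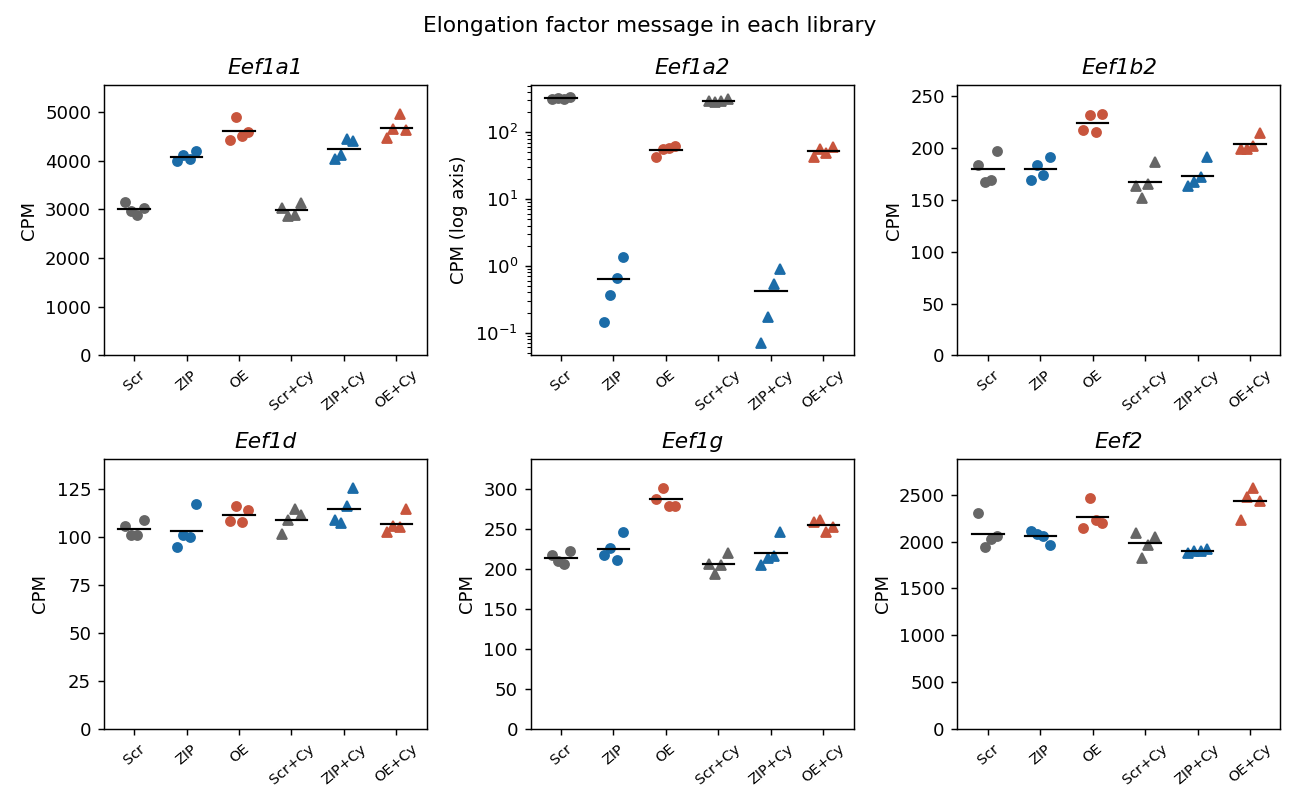
CPM of the 6 elongation factors in each library (points, offset by replicate number) with the group mean (line), for Scr, ZIP and OE without (circles) and with cytokines (triangles); the Eef1a2 axis is logarithmic and the others start at 0. Eef1a2 lies between 0.0698 and 1.38 CPM in the ZIP and ZIP+Cy libraries, where Eef1a1 lies between 3987 and 4450 CPM, above all Scr libraries.

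As a description, the log2 fold change of Eef1a2 between ZIP and Scr was −8.95 (SE 0.273), from a mean of 322.6 ± 8.99 CPM (SD, n = 4) to 0.635 ± 0.536 CPM. Without ZIP replicate 4, the ZIP library with the most reads of it, the value was −9.64. Between ZIP+Cy and Scr+Cy it was −9.42 (SE 0.287), and −10.17 without ZIP+Cy replicate 4. In OE, a comparison that shares its Scr libraries with ZIP, Eef1a2 fell by 2.55 on the log2 scale (SE 0.174, adjusted p = 9.77e-12 from edgeR), to 55.1 ± 8.70 CPM. Those Scr libraries also served in the choice of Eef1a2, so this p value is not independent of that choice. In OE+Cy it fell by 2.50 against Scr+Cy (SE 0.174, adjusted p = 1.53e-11 from edgeR). All OE libraries were below all Scr libraries in both comparisons. With the limits of 1.5-fold or more and p under 0.05, 25.7% of all genes differed between OE and Scr and 28.5% between OE+Cy and Scr+Cy, and at an adjusted p under 0.05 alone 50.1% and 53.4%.

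Eef1a1 lies on chromosome 9 of mm10 from 78478454 to 78481724, on the minus strand. It was at 3150.5, 2976, 2893 and 3028 CPM in the Scr libraries and at 3987, 4127, 4039 and 4195 CPM in the ZIP libraries. The lowest ZIP library was above the highest Scr library. The log2 fold change, given as a description, was 0.44 (SE 0.0488), or 1.36-fold, and 0.47 without the 3 libraries with nerve markers. Over all genes, 14.9% differed between ZIP and Scr by fold and p, and 28.3% at an adjusted p under 0.05, in the contrast that chose the members, so nothing is read from the members' place in it.

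The same difference was tested under cytokines, in libraries outside the contrast that chose the genes. Eef1a1 was at 3031, 2865, 2894 and 3140 CPM in Scr+Cy and at 4035, 4127, 4450 and 4398 CPM in ZIP+Cy. The groups did not overlap, and the log2 fold change was 0.51 (SE 0.0488, adjusted p = 1.31e-08 from edgeR), under the 1.5-fold limit. In this comparison 15.8% of genes passed the fold limit and 28.1% an adjusted p under 0.05. The OE libraries were higher again, at 4426, 4904, 4510 and 4597 CPM, and at 4471, 4658, 4964 and 4642 CPM with cytokines. Eef1a1 rose by 0.61 on the log2 scale in OE (SE 0.0489, adjusted p = 1.79e-10 from edgeR) and by 0.65 in OE+Cy (SE 0.0489, adjusted p = 5.92e-11 from edgeR). OE, the line with 0.171 times the Eef1a2 message of Scr, thus had at least as much Eef1a1 as ZIP, with 0.00202 times; OE and ZIP were not tested against each other.

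**Figure D2:**
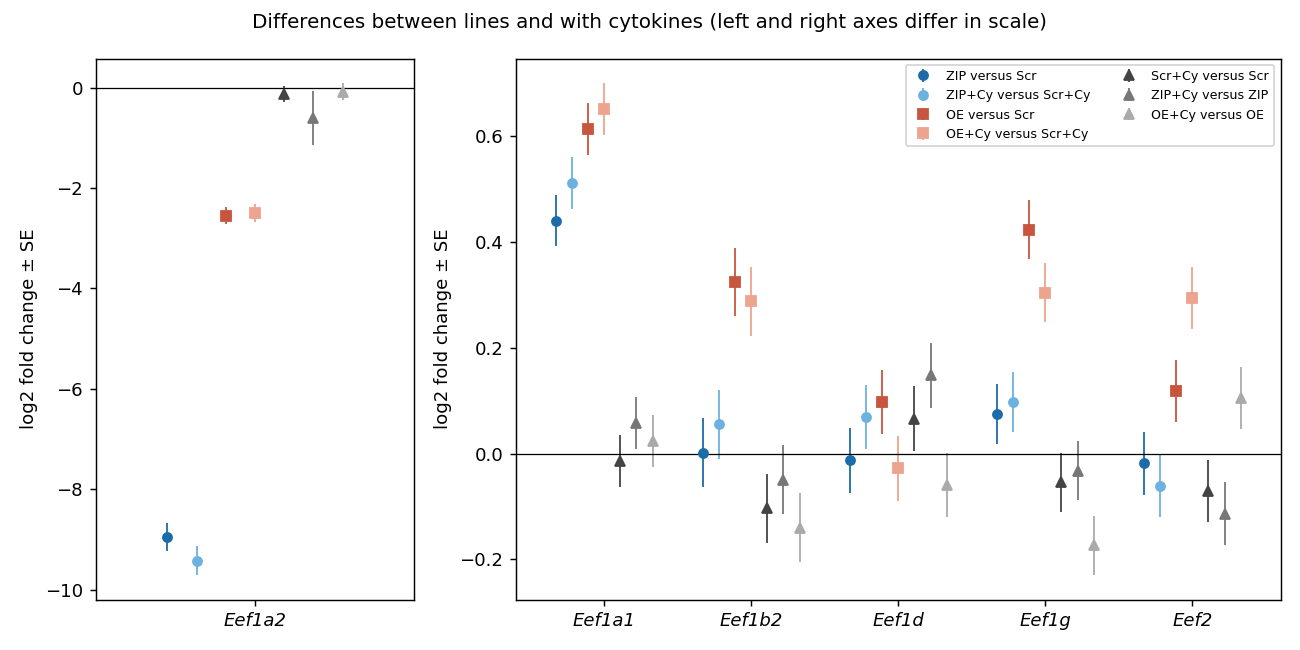
Log2 fold change (point) and its standard error (bar) of each member in 4 comparisons between lines (circles and squares) and 3 comparisons with cytokines (triangles); the left axis, for Eef1a2, has another scale than the right. Eef1a1 is the member above 0.4 in all 4 line comparisons, and Eef1a2 is at −8.95 and −9.42 in ZIP and near −2.5 in OE.

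Put on one scale by transcript length (1794 bases for Eef1a1 and 2084 for Eef1a2 in GENCODE M21), the Scr cells held 1679 ± 60.1 CPM per kilobase of Eef1a1 and 154.8 ± 4.31 of Eef1a2. Eef1a2 thus made up 8.45% ± 0.345 (SD, n = 4) of the eEF1A message in Scr, 0.0132% ± 0.0109 in ZIP and 1.02% ± 0.149 in OE. The summed level was 1834 ± 60.2 CPM per kilobase in Scr, 2278 ± 51.8 in ZIP and 2596 ± 118.1 in OE. ZIP libraries ranged from 2222 to 2339 and Scr libraries from 1765 to 1908, without overlap. The mean of Eef1a1 in ZIP was 599.2 CPM per kilobase above Scr, while the difference for Eef1a2 was −154.5. In OE the difference was 890.2 for Eef1a1, and −128.3 for Eef1a2. The sum over both genes was thus 1.24 times that of Scr in ZIP and 1.42 times in OE, and with cytokines 0.984 times in Scr+Cy, 1.29 times in ZIP+Cy and 1.44 times in OE+Cy. These sums have no test, since the members were chosen with results known.

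**Figure D3:**
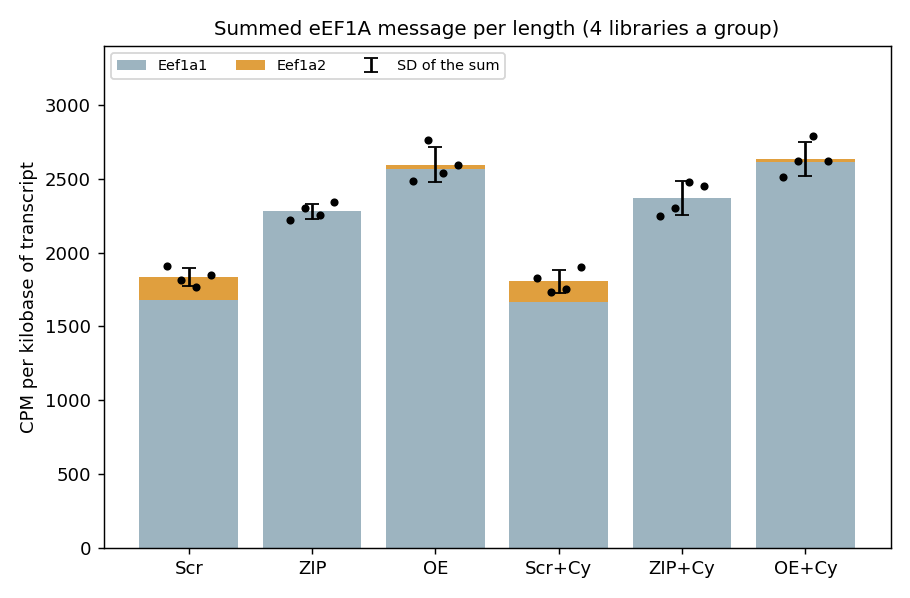
Mean CPM per kilobase of transcript of Eef1a1 and Eef1a2, stacked, in each group of 4 libraries, with the SD of the sum (bars) and the sum in each library (points). The sum is 1834 in Scr, 2278 in ZIP and 2596 in OE, and Eef1a2 is 8.45% of it in Scr.

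The genes around Eef1a1 were examined next, a step chosen after the data had been seen. Within 2 Mb on either side of its start, 14 other genes had a mean of at least 1 CPM. In ZIP, 12 of the 14 were higher than in Scr (median 0.74 on the log2 scale), and in OE 13 of 14, with a median of 0.73, against a median over all genes of 0. By fold and p, 9 were called higher in ZIP and 12 in OE, and none lower in either. Of all genes, 14.9% were called in ZIP and 25.7% in OE, in either direction. The genes of the window included Mto1, a mitochondrial tRNA-modifying enzyme (0.79 in ZIP and 0.84 in OE), the sialic acid transporter Slc17a5 (0.57, under the fold limit, and 0.69), the respiratory subunit Cox7a2 (0.70 and 0.65) and the flippase subunit Tmem30a (0.78 and 0.66). Cgas, the cytosolic DNA sensor, which starts 38.5 kb from Eef1a1, was at −0.04 and −0.17. Eef1a1 itself ranked 3 from the lowest of the 15 genes in both lines, 0.30 below the window median in ZIP and 0.11 below it in OE. With cytokines the window medians were 0.74 in ZIP+Cy and 0.85 in OE+Cy, and Eef1a1 was 0.22 and 0.20 below them.

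The stretch of higher genes had unlike extents in the 2 lines. On the side of lower positions it ended at a similar distance, with medians of 0.76 in ZIP and 0.85 in OE over the 11 genes 2 to 5 Mb away (all 11 higher in both), and of −0.01 and 0.02 over the 25 genes 5 to 10 Mb away. Towards higher positions, the 4 genes at 2 to 5 Mb had medians of 0.44 in ZIP and 0.79 in OE. From there on the lines parted. The 15 genes 5 to 10 Mb away had a median of 0.57 in ZIP and −0.13 in OE, the 36 genes at 10 to 20 Mb 0.59 and −0.12, and the 209 genes beyond 20 Mb 0.80 and −0.01. Of those 209, 201 were higher in ZIP and 99 in OE. Under cytokines the medians of the 209 were 0.79 in ZIP+Cy and −0.02 in OE+Cy, against Scr+Cy. Eef1a1 thus lies in a stretch of chromosome 9 whose genes were mostly higher in both lines, and 12 of the 14 genes within 2 Mb had larger values than Eef1a1 in each line. Whether the lines differ in copies of this stretch was not tested, as DNA was not measured here.

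**Figure D4:**
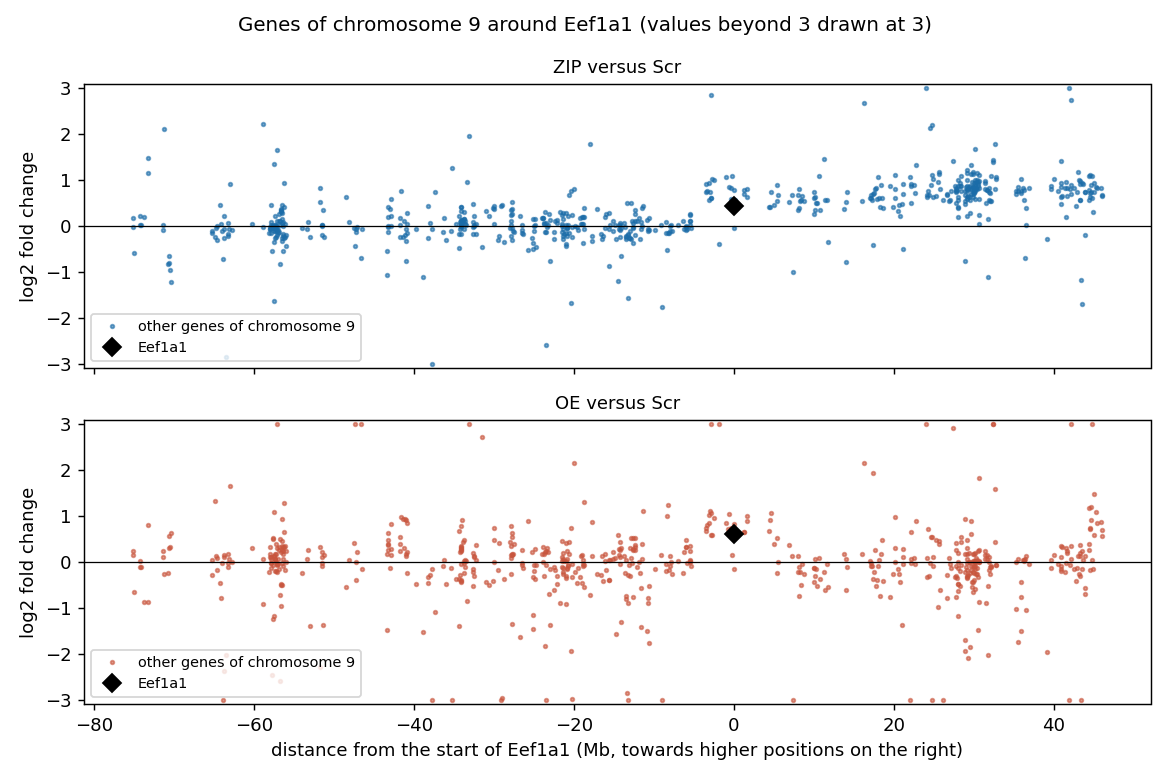
Log2 fold change of genes of chromosome 9 with a mean of at least 1 CPM against the distance of their start from that of Eef1a1, in Mb, in ZIP (top) and OE (bottom) against Scr; the diamond is Eef1a1. Genes within 2 Mb have medians of 0.74 in ZIP and 0.73 in OE, and genes more than 20 Mb to the right have medians of 0.80 in ZIP and −0.01 in OE.

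Around Eef1a2 the picture was narrower. Among the genes described here from the 5 on each side, a pair on the side of lower positions was lower in both lines. The nicotinic receptor gene Chrna4 had log2 fold changes of −1.06 in ZIP and −1.66 in OE, and the collagen gene Col20a1 of −0.78 and −1.86. On the other side Ppdpf was at −0.36 and −0.85, and Helz2 at −0.23 and −0.84. Stmn3 was at 0.01 in ZIP and −0.50 in OE. The others were close to 0 or slightly higher, with Ythdf1 at −0.05 in ZIP and 0.12 in OE, Arfgap1 at 0.26 and 0.36, Gmeb2 at −0.13 and 0.00, and Rtel1 at −0.17 and 0.04. Over the 43 genes within 2 Mb of Eef1a2 the median was −0.05 in ZIP and −0.14 in OE, with 5 and 8 called lower and 2 called higher in each. Calls in both directions together were at about the share of all genes, which was 14.9% in ZIP and 25.7% in OE. Chrna4 and Col20a1 were called lower in all 4 comparisons between lines, with and without cytokines. Windows around Eef1b2, Eef1d, Eef1g and Eef2 had medians between −0.07 and 0.15.

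**Figure D5:**
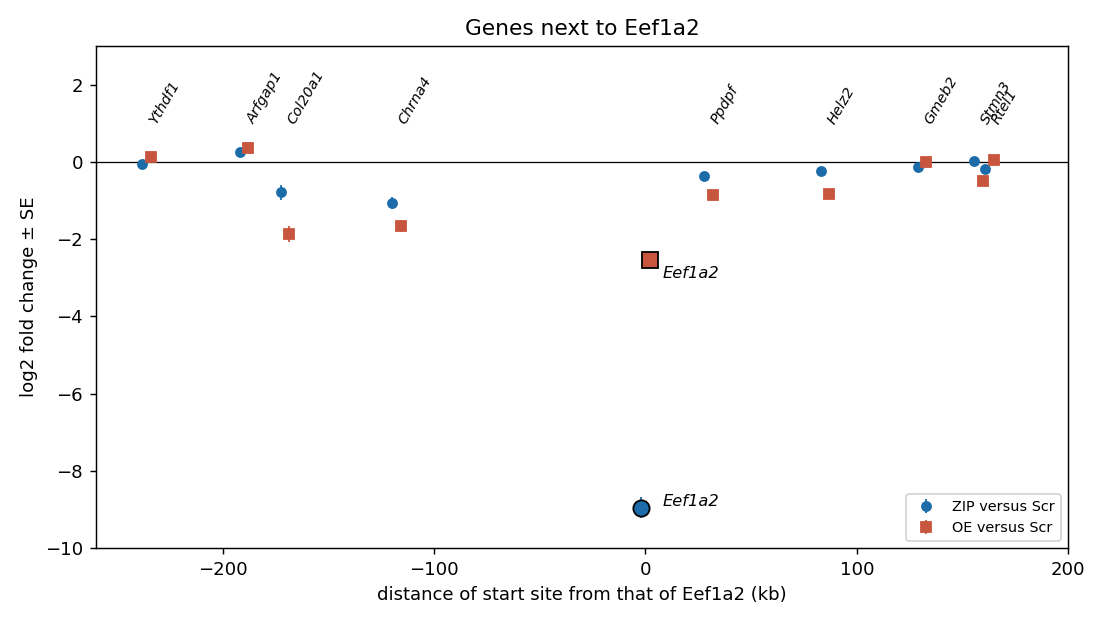
Log2 fold change and standard error of genes next to Eef1a2 that reached a mean of 1 CPM, against the distance between start sites in kb; the larger outlined symbols at 0 kb are Eef1a2. Chrna4 is at −1.06 in ZIP and −1.66 in OE, whereas Ythdf1 and Gmeb2 are near 0 in both.

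The eEF1B subunits and Eef2 were near their Scr levels in ZIP. Eef1b2 (chromosome 1, 63176831 to 63180486), a GTP exchange subunit, was at 183.6, 167.1, 169.2 and 197.2 CPM in Scr and at 169.3, 183.8, 173.6 and 191.0 CPM in ZIP, with overlapping libraries and a log2 fold change of 0.00. Eef1d (chromosome 15, 75894796 to 75909556), the other exchange subunit, was at 104.1 ± 3.73 CPM in Scr and 103.1 ± 9.57 CPM in ZIP. Eef1g (chromosome 19, 8967041 to 8978180), the structural subunit, was at 213.9 ± 7.00 and 225.4 ± 15.0 CPM. Eef2 (chromosome 10, 81176631 to 81182509) was at 2082 ± 156.2 and 2055 ± 64.5 CPM. For these 4 genes the 95% intervals of the difference between ZIP and Scr, given as a description, lay between −9.27% and 14.2%. Between ZIP+Cy and Scr+Cy none of the 4 passed an adjusted p of 0.05, and the intervals lay between −11.9% and 16.0%.

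In OE, part of this group was higher. Eef1g was at 287.6, 301.6, 279.2 and 279.0 CPM in OE against 217.4, 209.9, 206.5 and 222.0 CPM in Scr, without overlap, and rose by 0.42 on the log2 scale (SE 0.0563, adjusted p = 9.01e-07 from edgeR). Eef1b2 rose by 0.32 (SE 0.0648, adjusted p = 1.87e-04 from edgeR), from 179.3 ± 14.0 to 224.4 ± 9.47 CPM, again without overlap. With cytokines Eef1g was higher by 0.30 (adjusted p = 7.27e-05) and Eef1b2 by 0.29 (adjusted p = 6.27e-04, edgeR) in OE+Cy than in Scr+Cy. Both changes were below 1.5-fold. Eef1d did not pass in either comparison, with intervals of −1.95% to 16.8% and −10.1% to 7.05%. The subunits were not tested against each other.

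Eef2 passed the test in OE+Cy against Scr+Cy, whereas in OE against Scr the call depended on the libraries used. It was at 2144, 2469, 2235 and 2194 CPM in OE and at 2305, 1941, 2027 and 2056 CPM in Scr, with overlap, a log2 fold change of 0.12 and an adjusted p of 0.0993 from edgeR. Without the 3 libraries with nerve markers, the value was 0.17 (adjusted p = 0.0293), and it was 0.17 with Scr replicate 1 alone left out (adjusted p = 0.0192). In OE+Cy the libraries held 2229, 2479, 2575 and 2438 CPM against 2093, 1824, 1962 and 2048 CPM in Scr+Cy, without overlap. Eef2 was higher there by 0.29 (SE 0.0589, adjusted p = 1.77e-04 from edgeR). The difference between the cytokine responses of OE and Scr was 0.18 (adjusted p = 0.149 from edgeR). This difference passed with total counts in place of TMM scaling, at 0.26 (adjusted p = 0.0238), and without OE replicate 2, at 0.24 (adjusted p = 0.0437, edgeR). The library with cytokines was the lower one in 4 of 4 same-numbered pairs in Scr and the higher one in 4 of 4 in OE.

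With cytokines most members stayed near their untreated levels. None of the 6 passed the test between Scr+Cy and Scr, where 10.6% of all genes passed by fold and p and 17.8% at an adjusted p under 0.05. Eef1a2 had the value farthest from 0 there, at −0.13 (interval −27.6% to 15.3%, adjusted p = 0.660, and 0.525 with the replicate block). That interval and p rest on an estimate of spread shared by all groups. The SD of Eef1a2 was 2.79% of the mean in Scr and 4.52% in Scr+Cy, against 84.5% in ZIP and 90.1% in ZIP+Cy. Its Scr+Cy library was the lower one in 4 of 4 same-numbered pairs, without overlap between the groups, as it was in 4 of 4 pairs for Eef1b2, Eef1g and Eef2, which overlapped. The 3 had adjusted p values of 0.311, 0.577 and 0.469 from edgeR, and Eef1a1 was at −0.01 (interval −7.65% to 6.18%). Between ZIP+Cy and ZIP the shares were 12.5% and 26.4% of all genes, and none of the 5 members tested passed in the main fit, without a block. The ZIP+Cy library was the lower one of 4 of 4 pairs for Eef1a2, given without a test, and for Eef2. Eef1d was the nearest, at 0.15 (adjusted p = 0.0784), and with the replicate number as a block its adjusted p was 0.0167. Between OE+Cy and OE, where 21.0% and 44.6% of genes passed, Eef1g fell by 0.17 (SE 0.0562, adjusted p = 0.0142 from edgeR), from 286.8 ± 10.6 to 254.4 ± 6.59 CPM. The call was lost with total counts (adjusted p = 0.115) and without OE replicate 2 (adjusted p = 0.0666, edgeR), settings under which Eef2 passed as higher (0.0281 and 0.0435). Eef1a2 was lower in 4 of 4 pairs in OE as well, as were Eef1g and Eef1b2. Eef1b2 was at −0.14 in the same comparison, with an adjusted p of 0.0844 without and 0.0134 with the replicate block. Cytokine responses differed between ZIP and Scr for 0.0565% of genes and between OE and Scr for 20.0%, at an adjusted p under 0.05, and for none of the members tested.

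Among the other translation genes, the enzymes that modify elongation factors were called in OE by fold and p at about the share of all genes. Of 16 such genes, 3 were higher and 1 lower in OE, or 25.0% against 25.7% of all genes, with a list median of 0.19. At an adjusted p under 0.05 alone, 8 were higher and 5 lower, 81.25% of the list beside 50.1% of all genes. None was called in ZIP, where 14.9% of all genes were, and the list median was 0.02. At an adjusted p under 0.05, 1 was higher and 2 lower in ZIP, 18.75% of the list beside 28.3% of all genes. In OE, Eef1akmt3 and Eef1akmt4, methyltransferases of eEF1A, were higher by 0.98 and 0.77 (adjusted p = 0.00218 and 4.78e-04, edgeR). The direction of Eef1akmt3 did not hold with cytokines, with 0.637 ± 0.180 CPM in OE+Cy against 0.900 ± 0.269 in Scr+Cy, a difference of −0.50 on the log2 scale that did not pass (adjusted p = 0.121), and within OE it fell by 1.37 with cytokines (adjusted p = 1.20e-04, edgeR). The eEF2 methyltransferase Eef2kmt was higher by 0.81 (adjusted p = 7.31e-08), and Dhps, the first enzyme of hypusine synthesis on eIF5A, fell by 0.80 (adjusted p = 3.66e-10, edgeR). Dhps was also lower in ZIP, under the fold limit, at 13.0 ± 0.147 CPM against 19.0 ± 0.735 in Scr. In OE+Cy against Scr+Cy, 3 were higher and 3 lower, 37.5% of the list beside 28.5% of all genes, among them Eef2k, the kinase that inhibits eEF2, which fell by 0.76 (adjusted p = 5.45e-07 from edgeR). Eef1akmt4 was higher with cytokines in all 3 lines, by 0.70 in Scr, 1.18 in ZIP and 0.96 in OE.

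The initiation factors, synthetases and ribosomal proteins called in ZIP were mostly genes of chromosome 9 too. Over all lists, 6 of 179 translation genes (3.35%) were called against Scr, beside 14.9% of all genes, and 5 of the 6 lie on chromosome 9 at 27.9 to 42.1 Mb from Eef1a1. These were the initiation factor Eif1b (0.82), the glutaminyl-tRNA synthetase Qars (0.83) and the ribosomal protein genes Rpl14 (0.70), Rpl29 (0.64) and Rpsa (0.84), which in OE were between −0.07 and 0.20. The remaining one was Rpl22l1 on chromosome 3 (0.62). All 5 genes of chromosome 9 were also called in ZIP+Cy against Scr+Cy, by 0.68 to 0.88. Of the 87 ribosomal protein genes, 74 had values below 0 in ZIP, with a median of −0.16. At an adjusted p under 0.05, 22 were lower and 4 higher, 29.9% of the list beside 28.3% of all genes. In ZIP+Cy against Scr+Cy the median was −0.06, and 3 were lower and 4 higher, 8.05% of the list beside 28.1% of all genes. In OE 54 were above 0, with a median of 0.07. There 25 were higher and 10 lower at an adjusted p under 0.05, 40.2% beside 50.1% of all genes, and none passed by fold and p.

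By fold and p, 1 of 42 initiation factors (2.38%), 2 of 20 synthetases (10.0%) and 1 of 6 termination factors (16.7%) were called in OE, beside 25.7% of all genes. In OE the termination factor Gspt2 (0.78), the exchange factor subunit Eif2b4 (0.66) and the threonyl-tRNA synthetase Tars (0.65) were higher and the isoleucyl-tRNA synthetase Iars fell by 0.75. Cytokines raised the valyl-, lysyl- and tryptophanyl-tRNA synthetases Vars, Kars and Wars in all 3 lines, Wars by 1.13 in Scr, 1.17 in ZIP and 1.92 in OE, and the cap-binding factor Eif4e3 likewise, by 0.91, 0.70 and 0.99. The Wars response was larger in OE than in Scr by 0.80 (adjusted p = 0.00181 from edgeR for the difference, in libraries also used to name it). Of the 20 synthetases, 9 had a higher value of this difference at an adjusted p under 0.05 and none a lower one, 45.0% beside 20.0% of all genes. Of the initiation factors 4 were higher and 2 lower, 14.3% of the list, and 2 of the 6 termination factors were lower. Vars is the synthetase that associates with eEF1B, and it rose by 0.87, 0.94 and 0.80. None of the 4 mitochondrial elongation factor genes passed the fold limit in any of these comparisons.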

How the data were processed

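The mRNA libraries of 24 MIN6 samples were compared. The authors deposited estimated counts per gene: per their methods and the labels, reads passed FastQC, were aligned with STAR (2.7.8a per the labels) to mm10 and quantified in Partek Flow (11.0.24.0204 per the labels), and genes with few reads in total were removed. Strand use was not given in the sources used here. Of the deposited values 30.1% were not whole, and all were rounded. A deposited normalized table was not used. Genes were fitted together in edgeR 4.0.16 (R 4.3.3) with TMM scaling, 6 group means, quasi-likelihood tests and Benjamini-Hochberg adjustment over 17696 genes; the procedure was tested on simulated data. Calls required a 1.5-fold difference and p under 0.05, as in the study, and differences between the lines in cytokine response were called at an adjusted p under 0.05. The named genes were the 6 members, at most 4 called genes per translation list, 5 neighbours on each side at 1 CPM or more, and the genes most like Eef1a2; genes of the window and of chromosome 9 were chosen after their values were seen. Some genes that this rule names are not reported here. The members and lists were chosen with earlier results of these data known. Depth was a median of 30701023 reads, and 95% intervals come from the fit. No 2 libraries of the same group were duplicates, and libraries of different groups were not compared for this. Same-numbered libraries deviated together in ZIP versus Scr (correlations over 12670 genes of 0.141 to 0.634). They also did in Scr+Cy versus Scr, ZIP+Cy versus Scr+Cy, ZIP+Cy versus ZIP and OE+Cy versus OE. There the numbers were taken as pairs in counts of directions and in the replicate block. The main fit and its p values used no block. In OE versus Scr same-numbered libraries did not deviate together (−0.129 to 0.295), nor in OE+Cy versus Scr+Cy. Alternatives were DESeq2 1.42.0, other scalings, a count filter, fits on the compared groups, a replicate block and leaving out each library.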

Additional observations from a re-analysis of the deposited data

Results flagged for a closer look

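Of the 6 elongation factors and 19 genes of the other translation lists named above, 3 had a cytokine response in OE that differed from that in Scr by a test of the difference itself (edgeR), a test that 20.0% of all genes passed. Eef1akmt3 had a difference of −1.47 on the log2 scale (adjusted p = 0.00563), with 0.11 in Scr and −1.37 in OE, at levels near 1 CPM. Iars had a difference of 0.53 (adjusted p = 5.62e-04), with −0.23 in Scr and 0.31 in OE. Wars had a difference of 0.80 (adjusted p = 0.00181), as given above. Eef1akmt3 and Iars were named for their difference between OE and Scr, and Wars for its cytokine response. The test of the difference uses those libraries again. A gene picked as high in OE tends to get a lower value in it, and one picked as low a higher value. These p values are therefore not independent of the choice. No reason for these differences was tested.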

How the results depend on the processing

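The direction and, where tested, the side of the threshold of Eef1a1 and Eef1a2 between lines were the same under DESeq2, other scalings, the count filter, fits of only the compared groups and each library left out. With total counts and no composition scaling, Eef1a1 in ZIP was at 0.37 in place of 0.44, and the summed eEF1A message per length was 1.19 times that of Scr in ZIP and 1.23 times in ZIP+Cy. With the replicate block, and apart from Eef1d in ZIP+Cy against ZIP (0.15) and Eef1b2 in OE+Cy against OE (−0.14), no other member's call changed; the count of genes whose cytokine response differed between ZIP and Scr went from 10 to 45 with the block and to 41 with DESeq2. Small differences depended on the setting. In OE+Cy against OE, Eef1g had an adjusted p of 0.115 with total counts and 0.0666 without OE replicate 2, and Eef2 passed in both (0.0281 and 0.0435). The difference in cytokine response of Eef2 between OE and Scr passed with total counts (adjusted p = 0.0238) and without OE replicate 2 (0.0437). Eef2 in OE against Scr passed with DESeq2 (0.0445), Eef1d in ZIP+Cy against ZIP without ZIP replicate 4 (0.00785), and Eef1b2 in OE+Cy against OE with upper quartile scaling (0.0443) and without OE+Cy replicate 4 (0.0465). Removal of the 3 libraries with nerve markers, chosen after seeing the data, changed no member's call but that of Eef2 in OE. No explanation of these shifts was tested. Counting error limits Eef1a2 in ZIP, with 2 to 41 reads per library.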

Other observations

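Within groups, same-numbered libraries held similar places for Eef1a2. Replicate 4 held the highest of the 4 values in 6 of 6 groups and replicate 1 the lowest in 5, over levels from 0.0698 to 335.6 CPM. Eef1b2 was also highest in replicate 4 in 6 of 6 groups, Eef1d and Eef1g in 4, Eef1a1 in 2 and Eef2 in 1. What the number stands for is not given in the labels.

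Across the 24 libraries, genes whose log2 CPM was among the most like that of Eef1a2 among 10432 compared were Ddx39a (Pearson r = 0.97), Stard8, Ak3 and Xlr, and the least like were Uqcrc1 (r = −0.96), Dync1li1, Qars, Smarcc1 and Pax5. Of the last 5, the first 4 lie on chromosome 9. Uqcrc1, a subunit of respiratory complex III, was at 60.4, 114.6 and 71.3 CPM in Scr, ZIP and OE. The libraries of 1 group share their line, so these values describe the 3 lines. Eef1a1 had r = −0.49 with Eef1a2, place 1147 from the lowest.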
